A study of Mus musculus with 6 samples.

Results

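The Trim genes encode tripartite motif proteins, most of them RING-type ubiquitin ligases. They were followed here in liver invariant natural killer T (iNKT) cells that lack Ets1 and carry a floxed Tbx21 allele. The members are every gene of the deposited table whose GENCODE M21 symbol is Trim followed by a number. There are 38 of them among 12942 genes in the table, and GENCODE M21 holds 69 such symbols, of which the other 31 were not analysed here. The cKOHet cells came from mice with the genotype Tbx21Cre, Ets1F/F, Tbx21F/+ and Rosa26-YFP+, and Control cells from Tbx21Cre, Rosa26-YFP+ mice. Each group had 3 RNA-sequencing libraries, numbered 1, 2 and 4 in the titles, from primary liver cells sorted for CD1d tetramer binding and YFP. Both groups thus carry the Cre, which acts in cells that express T-bet (the product of Tbx21) and leaves YFP as a lasting mark of that activity. The sources used here do not give the ages or sexes of the mice.

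A tripartite motif protein carries at its start a RING domain that recruits a ubiquitin-conjugating enzyme, then B-box zinc fingers and a coiled coil through which it pairs with others. The end of the protein differs between members and decides what it binds, most often through a PRY-SPRY domain. Interferons induce many of the genes through IRF and STAT factors that bind interferon response elements. In the mouse a group of such genes, mostly with PRY-SPRY ends, has multiplied on chromosome 7. It holds Trim5, Trim12a, Trim12c, the Trim30 genes, Trim34a and Trim34b, and Trim21 lies nearby. The products are known for restricting viruses and for tuning RNA sensing, DNA sensing and NF-kappaB signalling.

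The libraries matched their labels at Ets1. Ets1 was at 462, 596 and 441 normalised read counts in cKOHet libraries and at 7391, 6255 and 7787 in Control libraries. Tbx21 was at 2206 ± 98.5 in cKOHet libraries and 2568 ± 174 in Control libraries (SD, n = 3 each; limma adjusted p = 0.196), and was not called. The groups differ in the alleles of both genes, so effects of the Ets1 and Tbx21 alleles cannot be told apart here. The columns of normalised counts summed to between 4996523 and 5219483, and the original read depth is unknown. Libraries numbered 4 listed Xist at 0.08 in cKOHet and 1.17 in Control, against 4337 or more in the other 4 libraries, so 1 library of each group stood apart in sex-linked expression. Markers of T and iNKT cells were all in the table (10 of 10), with sums of 47754 to 52062 in cKOHet libraries and 52508 to 56114 in Control libraries. Of these 10, Zbtb16 and Cd247 were called higher and Il2rb lower (log2 fold changes 0.53, 0.37 and -0.72). Of 11 macrophage and Kupffer cell markers 10 were in the table, with sums of 152 to 210 in cKOHet libraries and 36.6 to 98.3 in Control libraries, and Clec4f and Csf1r were called higher. Hepatocyte marker sums were 271 to 678 in cKOHet libraries and 203 to 414 in Control libraries, and no neutrophil marker of 7 was among the genes of the table. The 2 of 7 B cell markers in the table (Ighm and Cd22, both called lower) summed to 765 to 1048 in cKOHet libraries and 1906 to 2085 in Control libraries, while Ms4a1 was not among its genes. Nearly all of these sums was Ighm. Cd22 reached a normalised count of 10 only in Control libraries, so its call is no support for a pattern. The 2 of 6 endothelial markers summed to 48.9 to 52.4 in cKOHet libraries and 172 to 224 in Control libraries, with Pecam1 called lower. These sums were mostly Pecam1. The other marker, Stab2, was at 1.01, 6.54 and 12.4 in cKOHet libraries and at 3.67, 1.10 and 0.04 in Control libraries, and was not tested. The 4 of 8 dendritic cell markers summed to 507 to 583 in cKOHet libraries and 534 to 569.7 in Control libraries, but moved apart, with Itgax and Xcr1 called higher and Bst2 lower (log2 fold changes 2.77, 0.71 and -0.98). The 1 of 8 erythroid markers, Hba-a1, was at 7.40 to 33.2 in cKOHet libraries and 0 to 0.06 in Control libraries. Whether RNA of other cells took part in the Trim values was not tested, and in such bulk samples fewer cells of a type and less RNA per cell cannot be told apart.

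The sequences below are promoter stretches of Trim genes, most of them on chromosome 7. Of the chromosome 7 interferon-inducible names, promoter runs longer than 11 bases were shared only among Trim5, Trim12a and Trim12c, and among the Trim30 genes. Promoters were taken from RefSeq on GRCm38.p6 (mm10), as 250 bases before to 50 bases after each annotated start, and 29 of the 38 members had one. They were searched on both strands for GAAANNGAA, letters of the interferon response element type. The letters were in the promoters of 8 of the 9 chromosome 7 genes with interferon-inducible names, and Trim30c was the exception. Of the other Trim genes, 3 of 20 held them (Trim2, Trim25 and Trim26). Among all 32851 promoters 8.56% held them, and among all 27025 genes with a promoter 9.76% did in at least 1. Promoters of Trim5, Trim12a and Trim12c are close copies, as are those of Trim30a and Trim30d, so the 8 chromosome 7 matches are not separate occurrences. The match is a description of the letters and not a binding site. Up to 30 bases stand on each side, each run is written in its gene's direction, and capitals mark the match, which reads as its reverse complement in all but Trim21. In Trim30c, which holds no match, the capitals mark the stretch at the same place as the match of Trim30a.

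Trim21, chr7:102565453-102565499, minus strand: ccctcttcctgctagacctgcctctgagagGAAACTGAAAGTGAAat
Trim34a, chr7:104244438-104244486, plus strand: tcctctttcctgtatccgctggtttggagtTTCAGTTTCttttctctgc
Trim5, chr7:104288116-104288184, minus strand: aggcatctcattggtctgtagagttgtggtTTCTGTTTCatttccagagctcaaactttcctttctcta
Trim12a, chr7:104315466-104315514, minus strand: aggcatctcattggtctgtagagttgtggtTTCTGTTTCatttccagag
Trim12c, chr7:104353339-104353407, minus strand: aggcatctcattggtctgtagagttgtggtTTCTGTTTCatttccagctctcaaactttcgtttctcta
Trim30a, chr7:104465190-104465258, minus strand: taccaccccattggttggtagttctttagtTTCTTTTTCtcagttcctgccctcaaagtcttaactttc
Trim30d, chr7:104507851-104507919, minus strand: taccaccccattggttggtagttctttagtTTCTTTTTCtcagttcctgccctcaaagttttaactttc
Trim30c, chr7:104400876-104400944, minus strand: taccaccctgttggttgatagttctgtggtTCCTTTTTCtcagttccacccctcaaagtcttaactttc
Trim25, chr11:88999364-88999432, plus strand: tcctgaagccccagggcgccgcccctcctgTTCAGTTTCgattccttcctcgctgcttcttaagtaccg
Trim26, chr17:36836957-36837031, plus strand: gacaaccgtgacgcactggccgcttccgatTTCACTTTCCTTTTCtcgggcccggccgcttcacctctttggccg

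Trim5 and Trim12a shared an unbroken run of 241 bases of their promoters, offset between the 2 annotated starts. Trim30a, from the upstream of its 2 annotated starts, and Trim30d were identical at 277 of 300 aligned bases. Trim5 and Trim12c were identical at 263. The Trim30c run shown is the stretch of its promoter most like that of Trim30a. It differed at 8 of 69 bases, and 1 of these fell within the 9 letters in capitals. In Trim21 and Trim26 the letters occurred in a pair of overlapping copies. Letters of the STAT type (TTCNNNGAA) were in 1 of the 9 chromosome 7 promoters, that of Trim30c, and in 2 of the other 20, against 9.55% of all genes. Letters of the Ets type (CCGGAAG) were in none of the 9 and in 4 of the other 20 (Trim39, Trim41, Trim44 and Trim46), against 9.93% of all genes, which says only that these letters are not in these 9 windows. No chromosome 7 promoter held more than 1 of the 3 kinds.

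Of the 38 members, 33 reached a normalised count of 10 in at least 3 of the 6 libraries and were tested. The other 5 (Trim2, Trim6, Trim30c, Trim34b and Trim45) did not. Values were compared as log2(value + 1), cKOHet minus Control, by limma, with p-values adjusted after Benjamini and Hochberg across the 11226 tested genes, and calls were made below an adjusted p of 0.05. Of the 33, 11 were lower and 3 higher in cKOHet libraries. Over all genes tested 9.97% were called lower and 11.5% higher, or 21.4% in all, so the share of Trim genes called higher (9.09%) was near that of all genes and the share called lower (33.3%) was above it. Among the 33 tested members the groups did not overlap at 14 that were lower and 7 that were higher in cKOHet libraries, against 16.7% and 19.1% of all genes tested. Trim16 and Trim46 passed the filter only through the cKOHet libraries, where they were high, so their calls in that direction are no support for a pattern. The 11 that fell were the 7 tested genes with chromosome 7 interferon-inducible names, and Trim25, Trim26, Trim27 and Trim56.

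**Figure D1:**
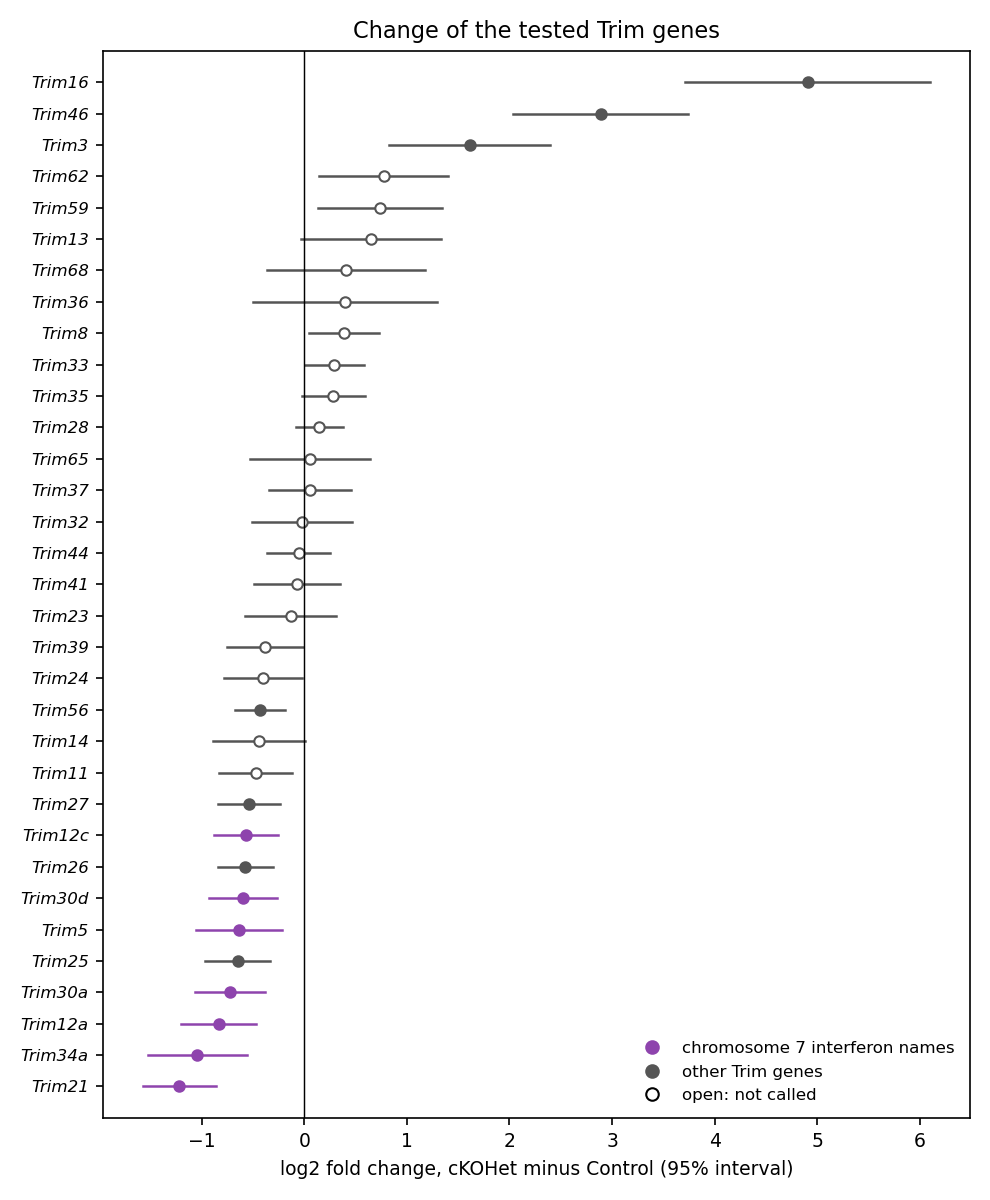
Log2 fold change of the 33 tested Trim genes, cKOHet minus Control on the log2(value + 1) scale, with 95% intervals from limma over 3 libraries per group; filled points passed the adjusted p of 0.05. The 7 chromosome 7 names lie between -1.22 and -0.57, while the other 26 spread from -0.65 to 4.90.

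Every tested gene of the chromosome 7 set was lower in cKOHet libraries, by 1.48-fold to 2.32-fold, and at each of the 7 genes the groups did not overlap. The median log2 fold change was -0.72, against 0.05 over the other 26 tested Trim genes and 0.01 over all genes tested. Among all genes the groups did not overlap at 35.8%, with cKOHet lower at 16.7%. The same 7 genes were called lower after each of the 3 other scalings of the columns. The calls did depend on the variance model and on single libraries. Without limma's mean-variance trend 2 of the 7 stayed called, Trim21 and Trim30d. Without Control replicate 2 there were 4, with a median of -0.62, without Control replicate 1 there were 5, and without cKOHet replicate 4 or Control replicate 4 there were 6. The list was chosen with earlier results of these data known, so its shared direction is a description.

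Trim21 fell most of this set. It encodes a cytosolic receptor for the Fc part of antibodies that ubiquitinates antibody-coated viruses. It lies at chr7:102557921-102565486, at some distance before the main cluster. Trim21 was at 269.9, 222 and 253 normalised counts in cKOHet libraries and at 528, 743 and 488 in Control libraries. All cKOHet libraries were below the lowest Control library. The log2 fold change was -1.22 (SE 0.17, limma adjusted p = 7.25e-05), and 0.22% of its 50-base windows recur in transcripts of another gene.

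Trim30a, in the mouse a brake on Toll-like receptor signalling to NF-kappaB, had the highest level per kilobase of exon of all Trim genes in Control libraries. It was at 829.9, 848 and 739 normalised counts in cKOHet libraries and at 1286, 1752 and 1040 in Control libraries. The Control libraries differed among themselves more than the cKOHet libraries did, and the groups did not overlap. The log2 fold change was -0.72 (SE 0.16, limma adjusted p = 0.00405). Per kilobase of exon its mean level was 196 in cKOHet libraries and 331 in Control libraries. Trim28 was the highest member in cKOHet libraries, with 302 per kilobase, and had 272 in Control libraries.

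Trim30d, its neighbour, was at 209.5, 221 and 210.3 normalised counts in cKOHet libraries and at 343, 358 and 276 in Control libraries. The cKOHet libraries lay close together, all below the Controls, and the log2 fold change was -0.60 (SE 0.16, limma adjusted p = 0.0126). Trim30c, between them and Trim12c, was nearly silent and uneven, with 23.1, 1.78 and 7.28 in cKOHet libraries and 0, 5.29 and 0.05 in Control libraries. The groups of Trim30c overlapped, 1 cKOHet library was high, and it was not tested. With no filter on low values its log2 fold change was 2.13 (SE 0.96, limma adjusted p = 0.148).

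Trim34a, a member of the family of PRY-SPRY genes that interferons induce, was at 212, 166 and 168 normalised counts in cKOHet libraries. In Control libraries it was at 392.4, 527 and 249.5. The Control libraries spread widely but still lay above all cKOHet libraries. The log2 fold change was -1.04 (SE 0.23, limma adjusted p = 0.00356). Its copy Trim34b was at 0.86 to 7.24 in cKOHet libraries and 2.15 to 8.43 in Control libraries, overlapped and was not tested. Of the 50-base windows of Trim34a transcripts 59.7% recur in transcripts of other genes, so its reads cannot be fully separated from those of Trim34b and of an antisense gene, and the sources used here do not say how reads with several matches were counted.

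Trim5 is the mouse relative of the primate gene for the retrovirus restriction factor TRIM5. It was at 194, 186 and 122 normalised counts in cKOHet libraries and at 231, 262 and 276 in Control libraries. The groups did not overlap, and its fall of 0.64 on the log2 scale (SE 0.20, adjusted p = 0.0312 by limma) had the highest adjusted p of the set. Leaving out cKOHet replicate 4 ended the call (log2 fold change -0.42, adjusted p = 0.112 by limma). It also ended when Control replicate 2 or 4 was left out (limma adjusted p 0.0849 and 0.108). Trim5 was the only 1 of the 7 in which Control replicate 4 was the highest Control library.

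Trim12a and Trim12c are rodent relatives of Trim5. Trim12a was at 630.5, 474.5 and 433 normalised counts in cKOHet libraries and at 958, 1093 and 703 in Control libraries, and fell by 0.83 on the log2 scale (SE 0.17, adjusted p = 0.00249 by limma). Trim12c was at 539.9, 544 and 636 in cKOHet libraries and at 951, 947 and 679 in Control libraries, and fell by 0.57 on the log2 scale (SE 0.15, adjusted p = 0.0111 by limma). In both genes Control replicate 4 came nearest to the cKOHet libraries. The Trim12c and Trim30d calls ended without Control replicate 1 (limma adjusted p = 0.0606 and 0.0586) and without Control replicate 2 (0.0579 and 0.0634). Trim5 and Trim12c share 36.6% and 33.7% of their 50-base windows with other genes, mostly with each other.

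Since reads of such copies may be exchanged, the values were also summed. Trim5, Trim12a and Trim12c together were at 1365, 1205 and 1191 normalised counts in cKOHet libraries and at 2140, 2301 and 1657 in Control libraries. Their summed log2 fold change was -0.69 (SE 0.13, limma adjusted p = 0.00156). The sum of Trim30a, Trim30c and Trim30d changed by -0.69 (adjusted p = 0.00384) and that of Trim34a and Trim34b by -1.03 (adjusted p = 0.00359), both by limma on the log2 scale. Each sum was lower in cKOHet libraries, as were the tested genes in it. Trim30c and Trim34b were low, so those sums nearly repeat Trim30a with Trim30d, and Trim34a. Trim30b and the antisense gene were not part of the sums, and whether reads were exchanged was not tested.

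**Figure D2:**
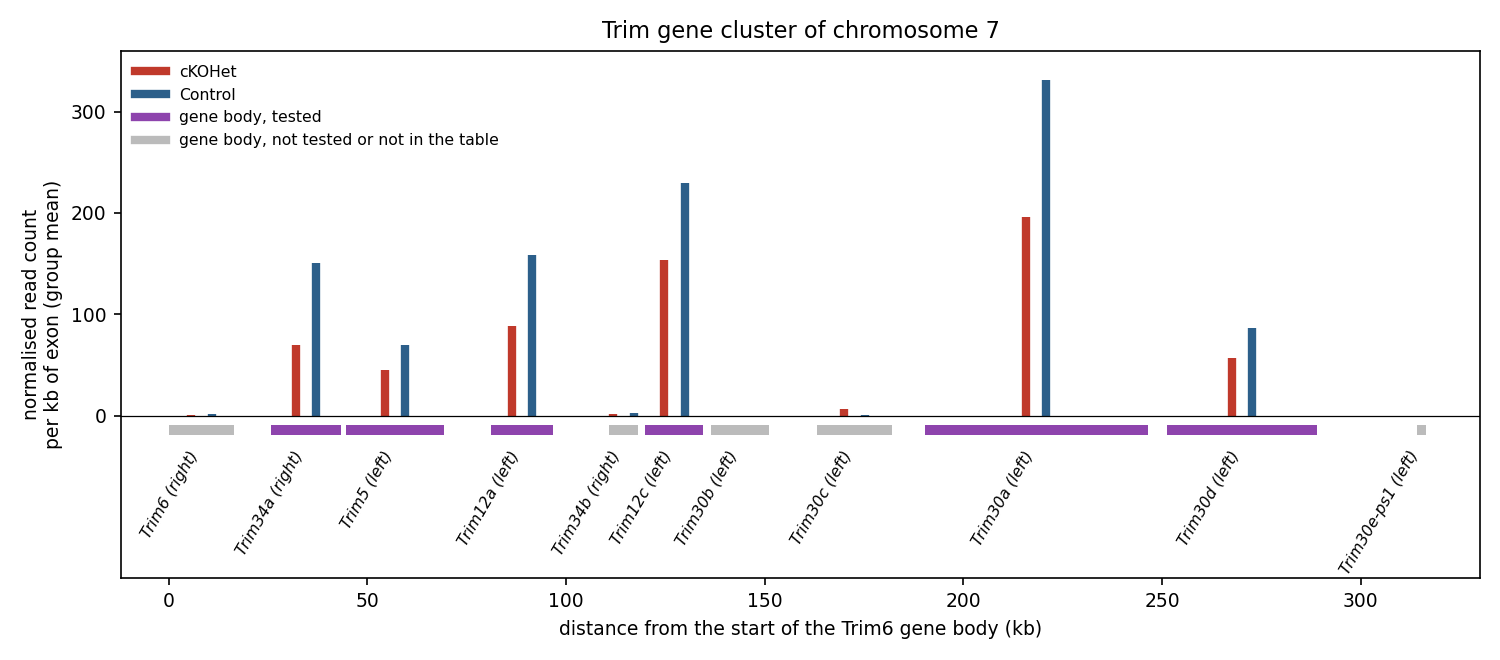
Mean normalised read count per kilobase of exon in cKOHet and Control libraries (bars, 3 libraries each, no error shown) above the Trim gene bodies of the chromosome 7 cluster, by distance from the start of Trim6 in kilobases, with the direction of each gene. The 6 tested genes of the cluster are each lower in cKOHet, while Trim6, Trim34b and Trim30c are near 0 in both groups.

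The main cluster spans 317 kb of chromosome 7 (chr7:104218793-104535361), where GENCODE M21 places 11 Trim genes, 9 of them in the table. Trim6, the first in the row, was at 1.07 to 3.02 normalised counts in cKOHet libraries and 4.23 to 7.47 in Control libraries. Its groups did not overlap, but it was too low to be tested. The fall was not shared by every Trim gene of the chromosome. Trim68, between Trim21 and the cluster, was at 49.5 ± 8.71 in cKOHet libraries and 38.8 ± 14.8 in Control libraries (SD, n = 3 each), with a log2 fold change of 0.41 (95% interval -0.36 to 1.18, limma adjusted p = 0.482). Trim3, beyond the other end of the cluster, rose.

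**Figure D3:**
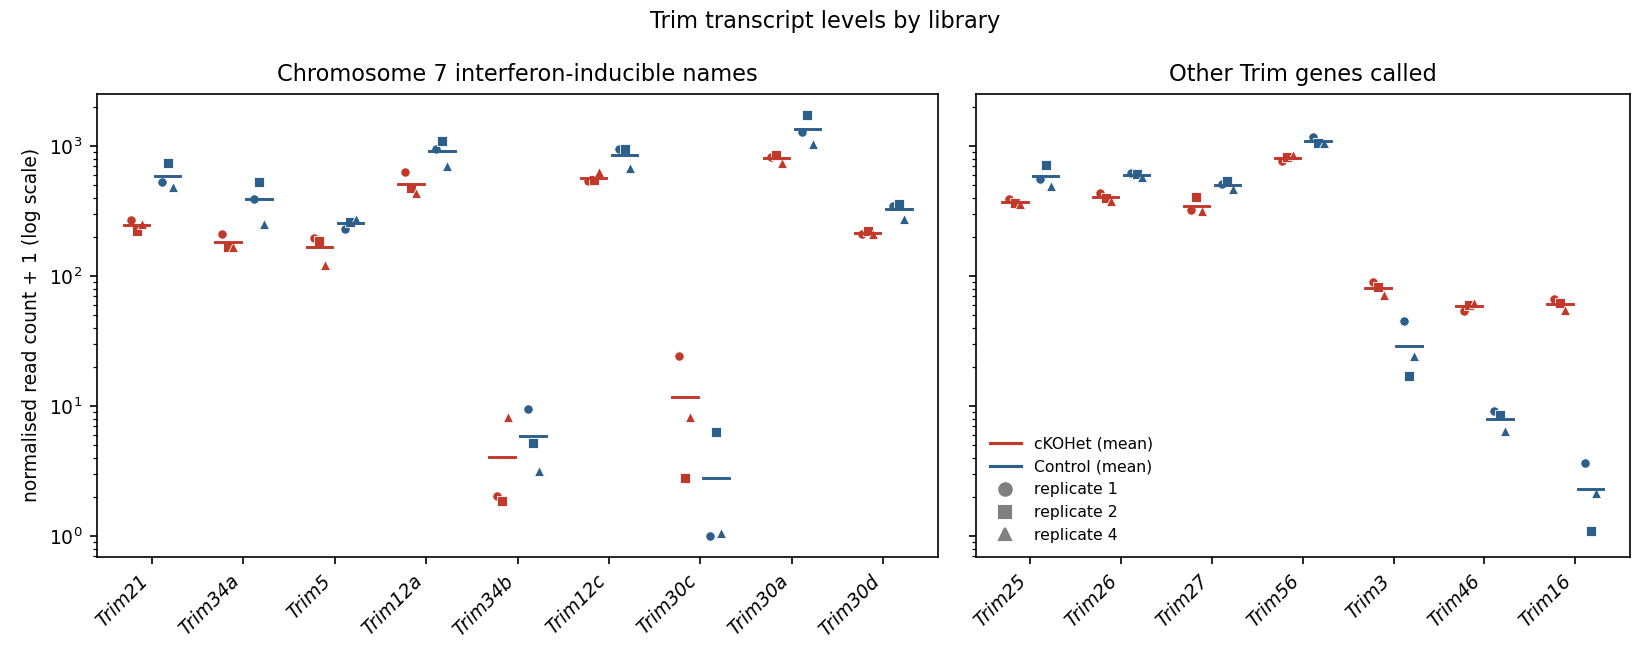
Normalised read count + 1 on a log scale in each library for the 9 chromosome 7 names (left) and the 7 other Trim genes that were called (right), cKOHet beside Control, with lines at group means and symbols for replicates 1, 2 and 4. Control replicate 4 is the lowest Control library in 6 of the 7 tested chromosome 7 genes, and Trim16 and Trim46 are at 54.0 or above and 53.4 or above in every cKOHet library.

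The level of the chromosome 7 set also varied between libraries of 1 group. Over its 7 tested genes the mean of log2(value + 1) was 8.46, 8.32 and 8.24 in cKOHet replicates 1, 2 and 4, and 9.15, 9.41 and 8.86 in Control replicates 1, 2 and 4. Control replicate 2 was the highest Control library for 5 of the 7 genes and Control replicate 4 the lowest for 6. Interferon-stimulated genes without Trim names, a list of 40 of which 38 were tested, ordered the libraries in the same way. Their mean log2 level was 7.58, 7.55 and 7.11 in cKOHet replicates 1, 2 and 4 and 8.36, 8.79 and 7.92 in Control replicates 1, 2 and 4. Control replicate 2 was the highest Control library for 33 of the 38, and Control replicate 4 the lowest for 33.

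**Figure D4:**
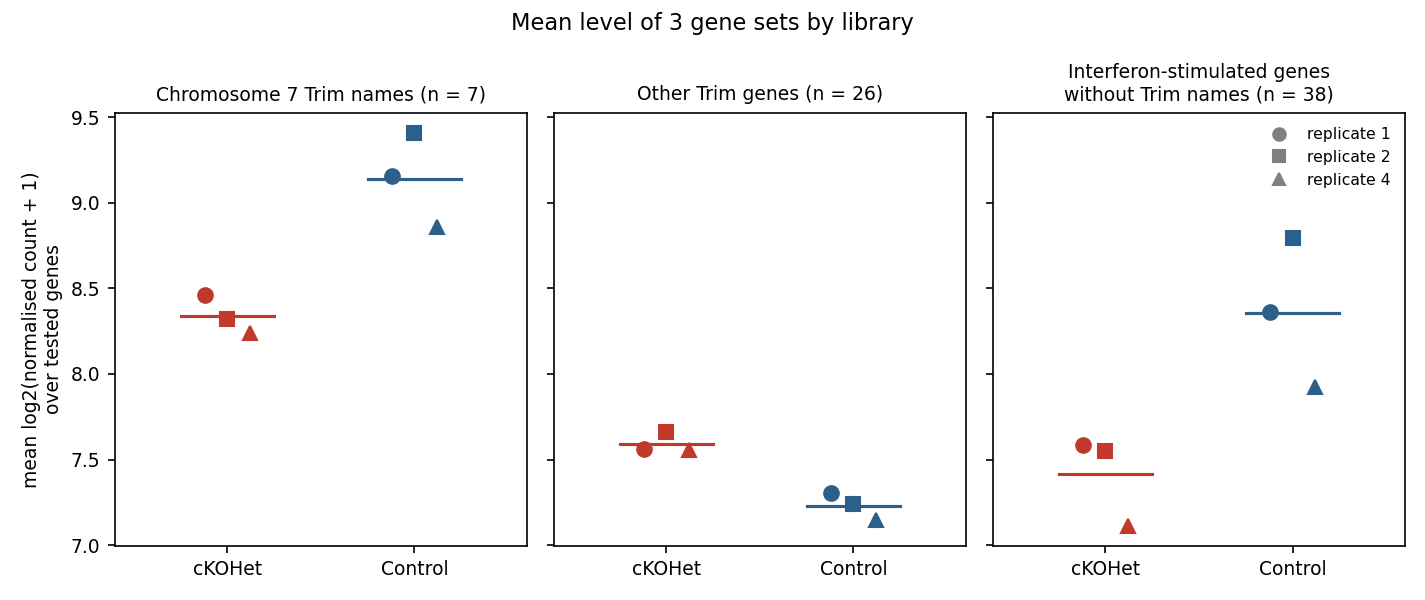
Mean log2(normalised read count + 1) over the tested genes of 3 sets in each library, cKOHet beside Control, with lines at group means and symbols for replicates 1, 2 and 4. For the chromosome 7 Trim names and the interferon-stimulated genes every cKOHet library lies below every Control library, and in the Control group replicate 2 is highest and replicate 4 lowest.

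Of these 38 interferon-stimulated genes 24 fell, 1 rose and 13 were not called, against 9.97% lower and 11.5% higher over all genes tested, with a median log2 fold change of -0.67. Of the 24, Ifi44 and Oas2 passed the filter only through the Control libraries, where they were high, so their calls in that direction are no support for a pattern. Ifi44, an interferon-induced gene, averaged 1.31 ± 0.64 in cKOHet libraries and 108 ± 57.2 in Control libraries (SD, n = 3 each; log2 fold change -5.46 by limma, adjusted p = 1.68e-06, and -4.05 with a pseudocount of 5). Rtp4 averaged 131 ± 40.4 in cKOHet libraries and 488 ± 121 in Control libraries, and Ifit1bl1 342 ± 143 and 1461 ± 313 (log2 fold changes -1.92 and -2.16). Mx1, which encodes an antiviral dynamin-like GTPase, was the gene that rose, with 440.02 ± 58.1 in cKOHet libraries and 268 ± 66.3 in Control libraries (log2 fold change 0.73, limma adjusted p = 0.00853). The list was written with earlier results of these data known.

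Outside chromosome 7, 4 Trim genes fell, by 1.34-fold to 1.57-fold. Trim25, the ligase that builds ubiquitin chains on the RNA sensor RIG-I, was at 391, 365 and 358 normalised counts in cKOHet libraries and at 561, 709.8 and 496 in Control libraries. Every cKOHet library was below every Control library, and the log2 fold change was -0.65 (SE 0.15, limma adjusted p = 0.00483). Trim26, which lies in the major histocompatibility complex of chromosome 17, was at 437, 396 and 381 in cKOHet libraries and at 617, 611 and 579 in Control libraries. Both groups were tight, and the log2 fold change was -0.57 (SE 0.13, limma adjusted p = 0.00375). Trim25 and Trim26 hold the interferon-type letters in their promoters, while Trim27 and Trim56, also called lower, do not. Trim2 holds them but was too low to be tested, and members without a promoter entry could not be searched. Whether the letters bear on the change was not tested.

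Trim56, known as a partner of the DNA-sensing adaptor STING, was at 769.5, 826 and 848 normalised counts in cKOHet libraries and at 1173, 1049.5 and 1063 in Control libraries. The groups lay apart, and it fell by 0.43 on the log2 scale (SE 0.11, adjusted p = 0.0141 by limma). Trim27, a ligase that in T cells restrains a potassium channel through a PI3 kinase, was at 321, 405 and 319 in cKOHet libraries and at 507, 536 and 467 in Control libraries. It was again lower without overlap (log2 fold change -0.54, SE 0.14, limma adjusted p = 0.0130). Trim27 lost its call without Control replicate 2 (limma adjusted p = 0.0578) and Trim56 without Control replicate 1 (0.0821), and without the mean-variance trend Trim26 alone of these 4 stayed called.

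The 3 Trim genes that rose were Trim16, Trim46 and Trim3. Trim16, a member without a RING that takes part in the clearance of damaged endosomes and lysosomes, was at 65.4, 61.4 and 54.0 normalised counts in cKOHet libraries and at 2.62, 0.09 and 1.16 in Control libraries. It was nearly silent in every Control library. Its log2 fold change was 4.90 (SE 0.56, limma adjusted p = 1.23e-05), or 3.39 with a pseudocount of 5, since a value near 0 makes the ratio depend on that choice. Exons of Trim16 overlap Fbxw10 on the same strand, which was not analysed here, and 4.13% of Trim16 windows recur in Fbxw10 transcripts.

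Trim46 binds microtubules through a COS box and is known for organising the start of the axon in neurons. It was at 53.4, 58.6 and 61.3 normalised counts in cKOHet libraries and at 8.16, 7.49 and 5.40 in Control libraries. By limma it rose by 2.89 on the log2 scale (SE 0.40, adjusted p = 7.92e-05). The groups lay far apart with little spread. Its exons overlap Krtcap2 on the opposite strand, and the sources used here do not say whether counting used the strand. Krtcap2 moved the other way, with 246 ± 21.1 in cKOHet libraries and 391 ± 23.2 in Control libraries (log2 fold change -0.67, limma adjusted p = 0.00343).

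Trim3, whose protein ends in NHL repeats and is known from vesicle transport in neurons, was at 88.6, 81.7 and 70.7 normalised counts in cKOHet libraries and at 44.3, 15.9 and 23.4 in Control libraries. All cKOHet libraries were above the highest Control library. The log2 fold change was 1.61 (SE 0.37, limma adjusted p = 0.00495). Per kilobase of exon all 3 genes stayed at the low end of the family in cKOHet libraries, with mean levels of 13.2 for Trim16, 15.2 for Trim46 and 17.6 for Trim3, against 0.28, 1.85 and 6.10 in Control libraries. Trim2, another gene with NHL repeats, was at 1.08 to 4.60 in cKOHet libraries and 2.17 to 15.6 in Control libraries and was not tested.

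The chromatin regulators of the family did not pass the test. Trim28 (KAP1) is the corepressor that KRAB zinc finger proteins recruit to silence retroelements. It was at 1238, 1234 and 1293 normalised counts in cKOHet libraries and at 1119.7, 1135 and 1141 in Control libraries. The groups did not overlap, but the difference was small (log2 fold change 0.15, 95% interval -0.08 to 0.38, limma adjusted p = 0.381). Trim33, a regulator of TGF-beta signalling through Smad4, averaged 586 ± 73.4 in cKOHet libraries and 476 ± 29.2 in Control libraries (SD, n = 3 each; 95% interval 0.01 to 0.58, limma adjusted p = 0.147). Trim24, a nuclear receptor cofactor and reader of histone tails, averaged 185 ± 24.4 in cKOHet libraries and 246 ± 35.7 in Control libraries, lower without overlap (log2 fold change -0.40, 95% interval -0.78 to -0.03, limma adjusted p = 0.128).

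Some members lay close to the threshold. Trim11 was at 198, 186 and 159 normalised counts in cKOHet libraries and at 265, 232 and 258 in Control libraries, and was lower without overlap (log2 fold change -0.47, limma adjusted p = 0.0545). It was called under upper-quartile and median-of-ratios scaling (adjusted p = 0.0402 and 0.0495). Trim62, known as a ligase for the adaptor CARD9, averaged 110 ± 20.7 in cKOHet libraries and 66.6 ± 26.4 in Control libraries (log2 fold change 0.77, limma adjusted p = 0.0768), and was called without Control replicate 4 (1.07, adjusted p = 0.0207). Trim59, an endoplasmic reticulum membrane member, averaged 192 ± 21.6 in cKOHet libraries and 123 ± 51.5 in Control libraries (log2 fold change 0.74, limma adjusted p = 0.0790), and was called without Control replicate 1 (0.99, adjusted p = 0.0267). Trim8, a regulator of cytokine signalling, averaged 431 ± 70.5 in cKOHet libraries and 328 ± 46.7 in Control libraries (log2 fold change 0.39, limma adjusted p = 0.103), and was called without cKOHet replicate 1 (0.51, adjusted p = 0.0486).

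The other members tested (Trim13, Trim14, Trim23, Trim32, Trim35, Trim36, Trim37, Trim39, Trim41, Trim44, Trim65 and Trim68) were not called, with log2 fold changes of -0.44 to 0.65. The interval of Trim44, a member that carries a ubiquitin-binding zinc finger in place of the RING, ran from -0.36 to 0.25. That of Trim37, whose product also acts in centriole assembly, ran from -0.34 to 0.45. The Trim37 interval thus did not exclude a change as large as the called fall of Trim56 (log2 fold change -0.43). Of the low members, Trim45 was at 5.04 to 29.0 normalised counts in cKOHet libraries and 4.29 to 9.53 in Control libraries. By type of protein end, none of 3 PHD and bromodomain members and none of 4 transmembrane, ARF or MATH members tested was called. Of 2 tested members with a COS box 1 rose (Trim46), as did 1 of 2 with NHL repeats (Trim3), and of 3 without a SPRY domain or another named end 1 fell (Trim56). Of the other 12 tested members outside the chromosome 7 set, mostly with PRY-SPRY ends, 3 fell (Trim25, Trim26 and Trim27) and 1 rose (Trim16).

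Genes around the family were read from lists in the same way. Of 5 tested relatives with RING, B-box or SPRY domains and other names, 2 fell, a small list to set against the 9.97% lower of all genes tested. Pml, the organiser of nuclear bodies and an interferon-induced tripartite motif protein, averaged 364 ± 59.5 normalised counts in cKOHet libraries and 599 ± 59.9 in Control libraries (SD, n = 3 each; log2 fold change -0.72, limma adjusted p = 0.00253). Bspry averaged 59.7 ± 21.9 in cKOHet libraries and 138 ± 33.0 in Control libraries (log2 fold change -1.25, limma adjusted p = 0.00804). Of 25 genes of RIG-I, cGAS and MAVS signalling, where Trim ligases find substrates, 6 fell and 1 rose, with a median of -0.10. By direction 24% were called lower and 4% higher, against 9.97% and 11.5% of all genes tested. In both directions together 28.0% were called, against 21.4% of all genes. Of the 6 that fell, Ddx58, Dhx58 and Irf7 are also in the list of interferon-stimulated genes.

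Ddx58, which encodes RIG-I, the substrate of Trim25, fell to 957 ± 62.5 in cKOHet libraries, against 1338 ± 38.2 in Control libraries (log2 fold change -0.48, limma adjusted p = 0.00541). Tmem173, which encodes STING, fell to 536 ± 32.1 in cKOHet libraries, against 863 ± 24.0 in Control libraries (log2 fold change -0.69, limma adjusted p = 0.000525). Nlrx1, a mitochondrial NOD-like receptor that reached the filter's 10 in 1 cKOHet library and in all Control libraries, fell to 13.4 ± 10.02 in cKOHet libraries, against 108 ± 35.4 in Control libraries (log2 fold change -3.08, limma adjusted p = 0.000152). Vcp, a ubiquitin-directed ATPase, rose to 2373 ± 81.5 in cKOHet libraries, against 1827 ± 166 in Control libraries (log2 fold change 0.38, limma adjusted p = 0.0252). The Vcp call ended when either of cKOHet replicates 2 and 4 or of Control replicates 1 and 2 was left out (adjusted p 0.0563 to 0.117).

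The enzymes that pass ubiquitin to RING ligases were mostly not called. Of 22 ubiquitin-conjugating enzymes tested, 2 rose, none fell and 20 were not called, with a median log2 fold change of 0.03. The share called higher, 9.09%, was near the 11.5% of all genes. The 2 were Ube2m, which carries NEDD8 rather than ubiquitin (547 ± 54.0 in cKOHet and 352 ± 61.1 in Control libraries, limma adjusted p = 0.00597), and Ube2h (1694 ± 386 and 1176 ± 56.5, adjusted p = 0.0205). The Ube2h call ended without cKOHet replicate 4, Control replicate 2 or Control replicate 4 (adjusted p 0.0609 to 0.0742). Of 19 partners of Trim28 and Trim33, 2 rose and 1 fell, with a median of 0.06. The share called, 15.8%, was not above the 21.4% of all genes. Setdb1, the histone methyltransferase that Trim28 recruits, rose to 425 ± 37.9 in cKOHet libraries, against 259 ± 46.7 in Control libraries (log2 fold change 0.73, limma adjusted p = 0.00383). Ski, a Smad corepressor, rose (0.50, adjusted p = 0.0270) and Trp53, which encodes p53, fell (-0.54, adjusted p = 0.0124). The Ski call ended without any library except cKOHet replicate 1 or Control replicate 2 (adjusted p 0.0833 to 0.116), and the Trp53 call without cKOHet replicate 4, Control replicate 1 or Control replicate 4 (adjusted p 0.0520 to 0.0654).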

How the data were processed

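RNA was sequenced from sorted liver cells of 3 cKOHet and 3 Control samples. The cell type label reads iNKT1 for all 6, while the titles of cKOHet replicate 1 and Control replicate 4 read iNKT. RNeasy mini kits for RNA and the Ovation Ultralow system for libraries are named in the labels' protocols. For each Ensembl gene the deposited table gives a signal, which by its name is a normalised count made by the authors with HTSeq. Trimmomatic 0.33, STAR, HTSeq 0.6.1, DESeq2 and the mm10 build are listed in the submitters' processing notes, and the sources used here give no settings, annotation, strand or normalisation method. The values are not whole reads, so no count test was run and the depth is unknown, which leaves the precision of low values to the replicates alone. GENCODE M21 named 12864 of 12942 identifiers and gave exon lengths.

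Values were analysed as log2(value + 1) with limma 3.58.1 in R 4.3.3 (mean-variance trend, Benjamini-Hochberg over all genes tested, 2 groups, no covariate), for genes at or above 10 in 3 of 6 libraries. The planned test was used as written, and it was tested on simulated data. Fold changes on this scale understate the change of low genes. The series' design text speaks of independent replicates, 3 per group, without naming mice. Replicate 1 of either group has a column code made of 2 names, and whether it is a pool is not stated, so the p-values rest on the spread of these libraries, which may be technical, and with 3 against 3 libraries no exact permutation test could fall below 0.1. Windows of 50 bases were compared between GENCODE transcripts, and promoters were aligned with Biopython 1.88.

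The members and lists were chosen with earlier results of these data known. Named were Ets1, Tbx21, every chromosome 7 interferon-inducible Trim name, every other called member, the 5 members nearest below the threshold, the 5 highest per kilobase, and up to 3 called genes per direction of each other list. Other genes named were chosen after their values were seen, among them Trim6, Trim44, Trim37, Trim45, Trim33, Trim2, Trim68, Krtcap2, Clec4f, Csf1r, Ighm, Cd22, Pecam1, Hba-a1, Oas2 and the other cell type markers. Alternatives covered the pseudocount, filter, scaling, variance model, library weights, a replicate block, the threshold, a term for low Xist and each library left out. Summing close copies was added after the data were seen.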

Additional observations from a re-analysis of the deposited data

How the results depend on the processing

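The counts of Trim genes called (11 lower, 3 higher) kept within 1.5 times under 16 of the 19 alternatives for the lower count and under all 19 for the higher. Without the mean-variance trend 3 Trim genes were called lower, 2 of them of the chromosome 7 set and 1 other. At an adjusted p under 0.01 these counts were 6, 4 and 2, and over all genes 806 were called higher and 670 lower, in place of 1288 and 1119. With each library left out in turn, 7 to 12 Trim genes were called lower, with 4 to 7 of the chromosome 7 set and 3 to 5 others. The lowest of these counts, 7 and 4, came without Control replicate 2. The median log2 fold change of the chromosome 7 set ran from -0.90 to -0.62 in these smaller fits, and that of the other Trim genes from -0.02 to 0.17. Without the trend the same differences were set against a common prior spread. For the other changes the cause was not tested. With low Xist as a covariate, 11 Trim genes were lower and 4 higher, the added one being Trim59. No followed gene reversed.

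Whether the replicate numbers pair the libraries is not known. In both groups replicate 1 has a joined column code and replicate 4 has low Xist. Deviations from group means of same-numbered libraries correlated at 0.09, 0.09 and 0.05 across genes, although each library correlated best with its own number, a hint from the data and not from the design. With a replicate block 11 Trim genes were called lower and 3 higher, and 1138 and 1274 of all genes. The depth behind the values is unknown, and it limits what can be said of Trim2, Trim6, Trim30c, Trim34b and Trim45.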
